A study of Homo sapiens with 9 samples.

Results

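Depending on the inducer, the human leukemia line K562 can take on either erythroid or megakaryocytic features. The arrays compared here were 3 of the 6 expression arrays of K562 cells in the series: 1 of cells given 5 nM PMA for 48 h, 1 with 25 µM hemin and 1 with 50 µM hemin. Hemin is the oxidized, iron-containing form of heme and served as the erythroid inducer, and PMA is a phorbol ester that activates protein kinase C and served as the megakaryocytic inducer. The PMA array was set directly against the hemin arrays, and a gene was counted as separated when its PMA value lay beyond both of them. The other K562 arrays were 2 of untreated cells and 1 of cells given 100 nM decitabine (DAC), which inhibits DNA methyltransferases. The remaining 3 of the 9 arrays were of HEL, an erythroleukemia line (untreated, 20 nM DAC and 5 nM PMA). The labels name no genetic change in either line, and PMA and each hemin dose had 1 array. For the hemin arrays no source used here gives the length of exposure, so the times of the inducers cannot be matched, and the shared protocol names 50 µM hemin alone whereas the sample titles give both doses.

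Red cells and platelets come from a common bone marrow progenitor, and both lineages use the transcription factor GATA1. Erythroid cells turn on globins and the enzymes of heme synthesis under KLF1, whereas megakaryocytes turn on platelet receptors, enlarge, adhere and leave the ordinary cell division cycle. Phorbol esters act through protein kinase C on the MAP kinase cascade and on the AP-1 and NF-kappaB transcription factors. Heme entering a cell is both an iron source and an oxidant, and is known to release the antioxidant genes driven by NRF2 and to call on heat shock proteins.

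All values below are log2 expression values per probe set (GCRMA), on which a difference of 1 is 2-fold, and a gene's values are given for its brightest probe set. Among 27306 probe sets, 9890 genes had a probe set that names 1 gene and reached a log2 value of 5 in any K562 array. Values under 5 were raised to 5 before a distance was counted, so a distance from an array under 5 is a lower bound, written as "at least". The lowest value on the arrays was 2.25, and the array medians ran from 6.67 to 6.78. Of 10 erythroid markers, 9 had a named probe set, and 8 of them were at or above 5 in each hemin and untreated array and 7 with PMA. Of 10 megakaryocyte markers, 7 had a named probe set, and 5 were at or above 5 with PMA, 2 with 25 µM hemin, 1 with 50 µM hemin and 2 in each untreated array. In whole cultures, fewer cells of a type and less RNA per cell cannot be told apart.

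Many K562 genes stood apart between PMA and hemin. The PMA value lay at least 2-fold above both hemin arrays in 1548 of 9890 genes (15.7%) and at least 2-fold below both in 1647 (16.7%). At any distance it lay above both in 3910 genes (39.5%) and below both in 4485 (45.3%), and between or level with them in 1495. The median size of the difference between PMA and the hemin mean was 0.825, whereas the hemin arrays differed from each other by a median of 0.298 and the untreated arrays by 0.312. Across genes, which are not independent replicates, the PMA array correlated with the hemin arrays at r = 0.776 (25 µM) and 0.753 (50 µM), and the hemin arrays with each other at 0.969. Most separated genes were also apart from untreated cells, with PMA above both untreated arrays in 1505 of the 1548 higher genes and below both in 1613 of the 1647 lower genes. Just inside the 2-fold distance stood BMAL1 (6.75 with PMA, 5.75 and 5.21 with hemin) and FOXRED1 (6.77 with PMA, 7.77 and 8.10 with hemin), and just outside it PBLD (6.66 with PMA, 5.66 and 5.02 with hemin) and CUL1 (9.27 with PMA, 10.26 and 10.46 with hemin).

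**Figure D1:**
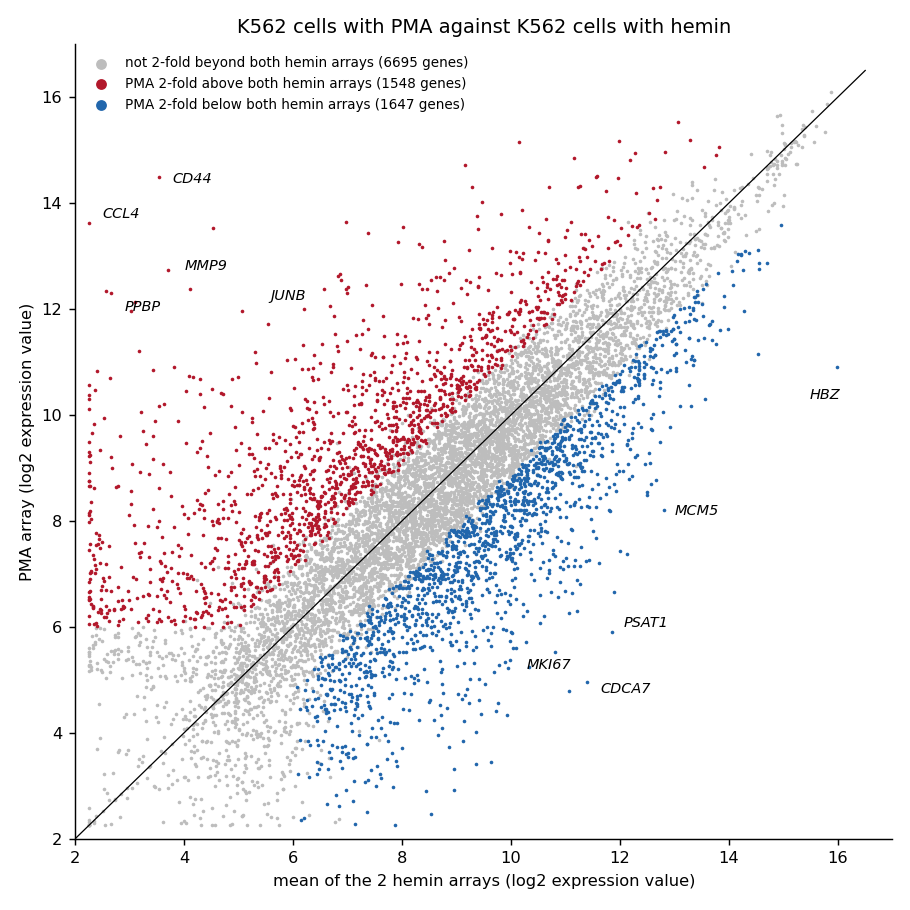
Each point is 1 of 9890 genes, with the mean log2 value of the 2 hemin arrays on the horizontal axis and the log2 value of the PMA array on the vertical axis; the line marks equal values. Red points (1548 genes) lie at least 2-fold above both hemin arrays and blue points (1647 genes) at least 2-fold below both, with CD44, CCL4, PPBP and MMP9 at the upper left and HBZ, PSAT1 and CDCA7 at the lower right.

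A test was made with limma on the 6 K562 arrays, with both hemin doses as 1 group. It called 2513 genes at an adjusted p under 0.05, 1174 higher with PMA (11.9%) and 1339 lower (13.5%), and 4300 genes had an unadjusted p under 0.05. Of these calls, 1047 higher and 1248 lower genes also met the 2-fold distance. The test assumes that the single PMA array varies like the untreated and hemin pairs, which gave its 2 residual degrees of freedom, and 348 of the 1174 higher calls had both hemin arrays under 5, where arrays barely differ. Without any 1 of the 4 untreated or hemin arrays limma called 0 genes, with 3078 to 3805 at an unadjusted p under 0.05. The labels name a replicate for untreated cells without saying that it was a separate culture, so p-values measure only how these arrays vary. The spread of the untreated pair may be technical. That of the hemin pair also holds the difference between the doses, which were 2-fold apart in 686 genes. Array values and distances are therefore given before any p. Each list count below is to be read beside the 15.7% and 16.7% of all genes 2-fold higher and lower.

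The genes furthest above both hemin arrays were an adhesion receptor, cytokines, a protease and feedback regulators. CD44, the hyaluronan receptor, had a log2 value of 14.48 with PMA, 4.02 and 3.05 with hemin and 4.32 and 4.97 untreated, at least 716-fold above hemin. CCL4, a chemokine, had 13.62 with PMA, 2.25 and 2.25 with hemin and 2.88 and 3.45 untreated. Its distance was at least 393-fold, and no hemin or untreated array reached 5. PHLDA1, an early response gene, stood at 8.61 and 6.67 untreated, 5.34 and 3.74 with hemin and 13.53 with PMA, so that both hemin arrays were also under both untreated arrays. The gelatinase gene MMP9 had 12.73 with PMA, 3.73 and 3.68 with hemin and 4.15 and 3.68 untreated, the MAP kinase phosphatase gene DUSP5 had 12.38 with PMA, 4.95 and 3.27 with hemin and 6.20 and 5.88 untreated, and the cytokine gene IL1B had 12.33 with PMA, 2.57 and 2.57 with hemin and 3.18 and 2.63 untreated. For these 3 genes the bounds were 212, 167 and 161-fold. CD44, CCL4, MMP9 and IL1B passed the minimum only through the PMA array and so had to be higher there.

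The remaining genes at this end were at least 57.6-fold above hemin. They were the platelet genes PPBP and CD9, TMEM158, ITGB1BP2, GSN, RHOB, GNG8, XIRP1 and the T cell receptor segment TRBV27. GSN, which encodes the actin-severing protein gelsolin, measured 11.97 with PMA, 5.99 and 4.12 with hemin and 8.21 and 6.82 untreated. RHOB, a small GTPase of the actin cytoskeleton, measured 13.43 with PMA, 7.52 and 7.22 with hemin and 9.67 and 8.66 untreated, with no hemin or untreated array within 3 log2 units of it. TMEM158 had 9.63 and 8.07 untreated, 7.28 and 6.65 with hemin and 13.64 with PMA and ITGB1BP2, an integrin-binding protein of muscle, 3.17 and 3.17 untreated, 3.24 and 3.10 with hemin and 11.20 with PMA. TRBV27 went from 3.44 and 4.72 untreated and 2.76 and 3.44 with hemin to 12.14 with PMA. PPBP, ITGB1BP2, XIRP1 and TRBV27 passed the minimum only through PMA and so had to be higher.

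At the other end stood genes of dividing cells, amino acid supply and an embryonic globin. CDCA7, a gene induced in cycling cells, measured 4.96 with PMA against 11.45 and 11.35 with hemin and 11.61 and 11.80 untreated, at least 81.5-fold lower. Its other probe set was -2.30 from the hemin mean, against -6.44 for this one. The mitotic kinase gene PBK had 10.85 and 11.03 untreated, 11.01 and 10.60 with hemin and 5.53 with PMA, and SPC25, a kinetochore subunit, 11.75 and 12.16 untreated, 12.10 and 11.66 with hemin and 6.66 with PMA. Values in both genes were tight among the 4 hemin and untreated arrays, which stayed within 0.43 and 0.50 log2 units. SLC7A11, the cystine transporter, had 4.78 with PMA, 12.18 and 9.93 with hemin and 10.61 and 10.26 untreated, and PSAT1, an enzyme of serine synthesis, 5.91 with PMA, 12.90 and 10.81 with hemin and 12.92 and 12.54 untreated. In both, 50 µM hemin was more than 2 log2 units under 25 µM hemin, and PMA lay well under both. The centromere gene HJURP, the nuclear pore gene NDC1, RAD51AP1, LRP11, LINC01029, KIF11, CDKN3, MTFR2 and CDCA7L were between 22.4 and 26.3-fold below the nearer hemin array (lower bounds where the PMA value was under 5), all past limma (adjusted p from 0.00573 to 0.00911).

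Platelet receptors and granule proteins were higher with PMA than with hemin. Of 24 genes listed, 12 were measured, and 9 of these lay at least 2-fold above both hemin arrays and 0 below, against 15.7% and 16.7% of all genes. Their median difference was 4.77, beside -0.09 over all genes, but 4 of the 12 passed the minimum only through the PMA array and so had to be higher there. PPBP, the precursor of platelet basic protein, was among these 4. It had 12.31 with PMA, 2.77 and 2.55 with hemin and 3.97 and 3.63 untreated (at least 159-fold). CD9, a tetraspanin of platelets and megakaryocytes, had 11.96 with PMA, 3.0001 and 3.07 with hemin and 5.04 and 3.99 untreated. The collagen receptor gene GP6 was 10.68 with PMA, 4.85 and 4.91 with hemin and 6.80 and 6.62 untreated, so hemin lay under untreated cells and PMA above them.

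The fibrinogen receptor of platelets is the integrin formed by ITGA2B and ITGB3. ITGA2B measured 7.29 and 7.86 untreated, 5.65 and 4.33 with hemin and 10.71 with PMA, 5.71 ± 0.66 (SE) above the hemin mean (limma adjusted p = 0.0144). ITGB3 was at 3.63 in both hemin arrays, 3.66 and 3.63 untreated and 10.21 with PMA. RAB27B, which serves granule release, had 11.03 with PMA, 7.04 and 4.74 with hemin and 8.96 and 9.62 untreated, and LTBP1, which holds latent TGF-beta, 12.37 with PMA, 8.45 and 8.45 with hemin and 9.02 and 8.33 untreated. TUBB1, the platelet tubulin, had 9.92 with PMA, 8.67 and 9.23 with hemin and 6.67 and 6.02 untreated, which put PMA less than 2-fold above 50 µM hemin and all 3 treated arrays above both untreated arrays. GP1BA, a subunit of the von Willebrand factor receptor, had 5.43 with PMA, 4.46 and 4.34 with hemin and 4.62 and 4.46 untreated and so was 0.43 above the minimum with PMA alone. PF4, GP9, SELP, GP5, THBS1 and TREML1 stayed under the minimum in all K562 arrays, with PMA as well, and PF4, GP9 and SELP were at 2.25 with PMA and with both hemin doses.

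**Figure D2:**
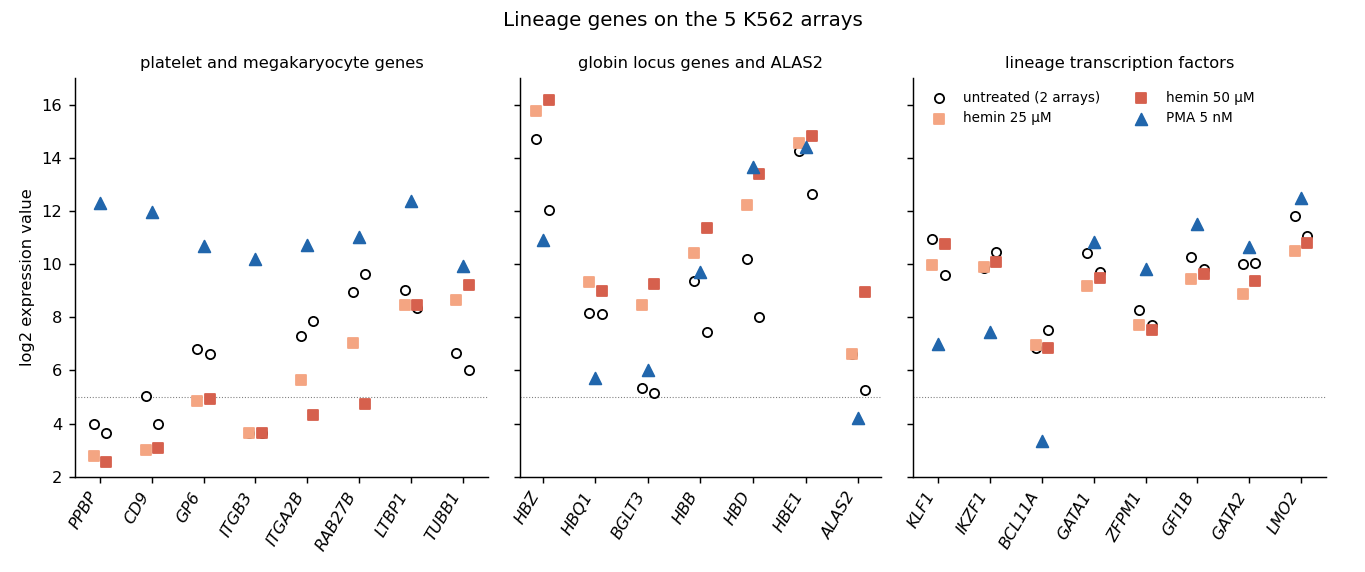
Log2 values of lineage genes on the 5 K562 arrays, with untreated arrays as open circles, hemin arrays as squares and the PMA array as a triangle; the dotted line marks the minimum of 5. PMA stands above every other array in the platelet panel, while among the globin locus genes it is lowest for HBZ and HBQ1 and highest for HBD.

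Promoters were searched for short motifs on both strands in the 250 bases before each start site of RefSeq (GRCh38.p14), which held a window for 83.1% of the genes tested. The motif letters were TGANTCA for AP-1, TGACNNNGC for the antioxidant response element, which can contain an AP-1 match, AGATAA for factors of the GATA family, GAANNTTC for the heat shock element and GGGANTTCC for NF-kappaB. A match is a description of letters, not of a bound site. The PPBP window, shown as that of the platelet gene with the highest distance, held 1 GATA match, in capitals, and such a match stood in 5.09% of windows of tested genes and in 5.6% of those of genes 2-fold higher with PMA.
PPBP, chr4:73988191-73988440, minus strand: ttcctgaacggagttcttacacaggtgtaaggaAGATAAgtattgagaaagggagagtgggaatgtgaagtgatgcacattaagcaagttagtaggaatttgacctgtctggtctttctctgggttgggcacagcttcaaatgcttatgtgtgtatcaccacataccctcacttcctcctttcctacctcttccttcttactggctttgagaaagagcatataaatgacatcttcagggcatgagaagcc

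Adhesion and cytoskeletal genes were also higher with PMA. Integrins and adhesion receptors had 9 of 12 measured genes 2-fold above both hemin arrays, 0 below, and a median difference of 2.97, with 3 of the 12 kept only through PMA. Genes of the actin cytoskeleton had 12 of 16 above, 0 below, and a median of 2.40, with 1 kept only through PMA. ITGA2, a collagen receptor subunit, was at 2.25 in every K562 array without PMA and at 9.23 with it. CD82, a tetraspanin, had 11.19 with PMA, 5.07 and 5.52 with hemin and 5.98 and 6.66 untreated. PECAM1, an adhesion molecule of platelets and endothelium, had 8.91 with PMA, 3.18 and 3.18 with hemin and 4.83 and 4.60 untreated. The cytoskeletal genes differed in a graded way, since hemin lay under untreated cells in several of them. ZYX (zyxin, of focal adhesions) measured 9.99 and 8.61 untreated, 7.36 and 6.64 with hemin and 12.31 with PMA, and TLN1 (talin) 9.04 and 7.14 untreated, 6.71 and 6.02 with hemin and 10.65 with PMA. The other probe set of TLN1 was 1.43 above the hemin mean, against 4.29 for this one. For MYL9, the myosin light chain of contractile cells, the values were 9.45 with PMA, 3.45 and 3.17 with hemin and 4.06 and 4.07 untreated, and for TPM4, a tropomyosin, 12.55 with PMA, 8.62 and 8.43 with hemin and 9.68 and 9.68 untreated. ACTB, at 15.67 with PMA and 15.04 and 14.84 with hemin near the top of the scale, was less than 2-fold apart, as were CNN2, TPM1 and PLEK2.

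Genes that free cells from or bind them to matrix followed the same order. Of 7 measured genes of plasminogen activation and matrix proteolysis, 5 were 2-fold above hemin and 0 below (median 3.66, 1 kept only through PMA). The urokinase receptor gene PLAUR had 12.45 with PMA, 7.68 and 6.997 with hemin and 7.34 and 8.31 untreated, and PLAU, urokinase itself, 10.40 with PMA, 6.14 and 3.28 with hemin and 5.16 and 6.21 untreated, with the hemin doses 2.86 log2 units apart and an adjusted p of 0.0522 in limma. TIMP1, an inhibitor of metalloproteinases, had 15.17 with PMA, 12.25 and 11.72 with hemin and 13.07 and 12.76 untreated. CTSL and SERPINE2 were not 2-fold apart.

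**Figure D3:**
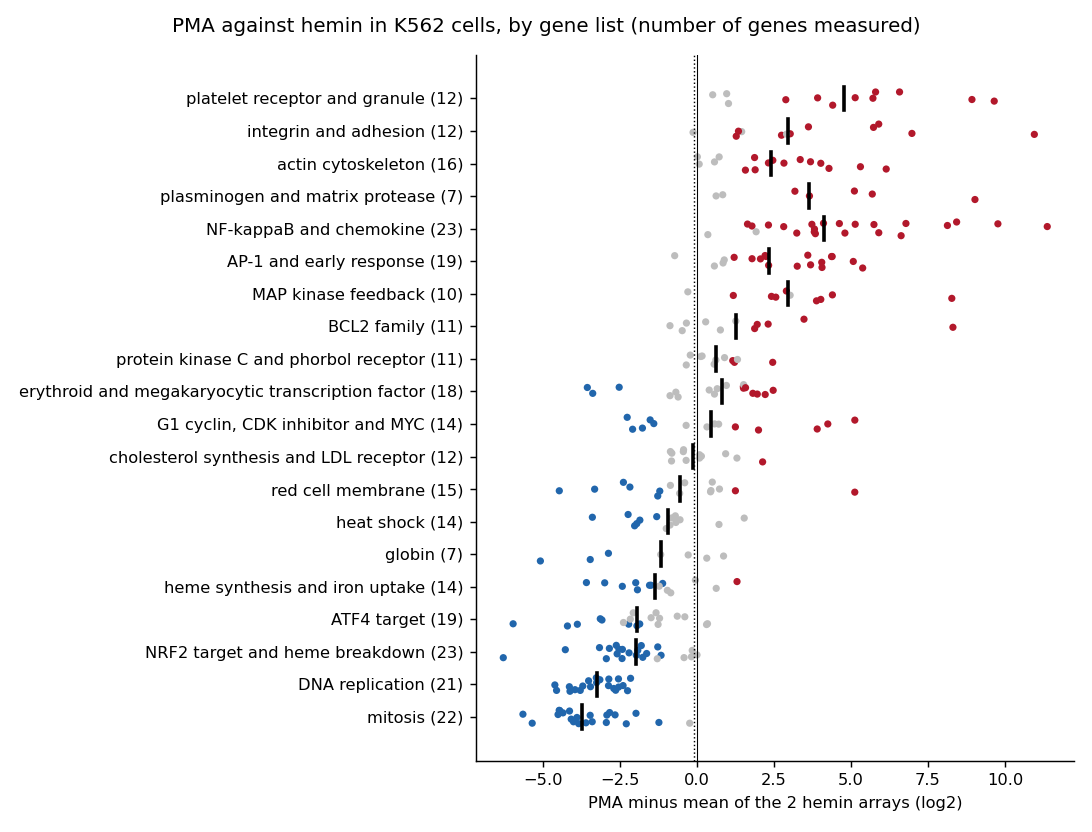
Difference between PMA and the mean of the 2 hemin arrays (log2, horizontal axis) for each measured gene of 20 lists, with red points 2-fold above and blue points 2-fold below both hemin arrays, black bars at list medians and a dotted line at the median of all genes (-0.09). The platelet and NF-kappaB lists have medians of 4.77 and 4.11, and the DNA replication and mitosis lists -3.25 and -3.71.

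Most AP-1 and early response genes stood higher with PMA after 48 h. Most protein kinase C and phorbol receptor genes were less than 2-fold apart from hemin. Of 11 measured protein kinase C and phorbol receptor genes, 3 were 2-fold above hemin and 0 below, against 15.7% and 16.7% of all genes. Their median was 0.62, or 0.44 against 25 µM and 0.93 against 50 µM hemin alone. PRKCD measured 7.53 with PMA, 5.46 and 4.67 with hemin and 5.55 and 5.26 untreated and passed limma (adjusted p = 0.0283), while PRKD2 (9.98 with PMA, 8.66 and 8.95 with hemin and 9.06 and 8.71 untreated) and PRKCA (10.81 with PMA, 9.81 and 9.37 with hemin and 9.17 and 9.95 untreated) did not. In the AP-1 and early response list, 15 of 19 genes were 2-fold above and 0 below (median 2.33), and 12 passed limma. The minimum was passed only through PMA by 3 of the 19, FOSB among them, which had to be higher. JUNB, an AP-1 subunit, had 12.06 with PMA, 6.48 and 6.88 with hemin and 8.66 and 7.44 untreated. FOSB, another subunit, had 8.62 with PMA, 3.24 and 3.84 with hemin and 3.84 and 3.43 untreated, and FOS 8.61 with PMA, 4.99 and 5.72 with hemin and 5.05 and 3.78 untreated. The early response regulators NR4A2, IER3 and EGR1 stood 4.28, 3.53 and 3.33 log2 units above the nearer hemin array. JUN was 9.26 with PMA and 8.42 and 8.31 with hemin, less than 2-fold apart, and ATF3 at 7.49 lay between the hemin arrays (9.47 and 6.93).

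Inhibitors that damp MAP kinase signalling were higher as well, in 8 of 10 genes with 0 lower (median 2.97, 2 kept only through PMA). Beside DUSP5, the sprouty gene SPRY2 had 11.39 with PMA, 7.14 and 6.84 with hemin and 7.73 and 7.51 untreated. SPRY4, of the same family, had 9.27 with PMA, 6.02 and 4.47 with hemin and 7.61 and 5.77 untreated with an adjusted p of 0.0651, and the phosphatase gene DUSP10 10.14 with PMA, 6.95 and 5.55 with hemin and 8.05 and 8.21 untreated. DUSP6 was under the minimum on all K562 arrays.

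AP-1 matches stood in 5.39% of promoter windows of genes 2-fold higher with PMA. They stood in 6.47% of those 4-fold higher and 5.47% (7 of 128) of those 16-fold higher. The shares were 3.09% and 2.24% for genes 2-fold and 4-fold lower, 4.17% for all genes tested and 6.57% for all RefSeq windows. NF-kappaB matches stood in 1.54%, 1.06% and 0% of windows of 2-fold, 4-fold and 16-fold higher genes and 1.84% of those tested. The windows of PLAUR and of XIRP1, a gene of actin-rich adhesion sites, are shown because both genes were far above hemin and hold an AP-1 match, in capitals. XIRP1 had 10.85 with PMA, 3.30 and 3.55 with hemin and 4.02 and 4.54 untreated. Its window also holds antioxidant response, heat shock and GATA matches, not marked.
PLAUR, chr19:43670170-43670419, minus strand: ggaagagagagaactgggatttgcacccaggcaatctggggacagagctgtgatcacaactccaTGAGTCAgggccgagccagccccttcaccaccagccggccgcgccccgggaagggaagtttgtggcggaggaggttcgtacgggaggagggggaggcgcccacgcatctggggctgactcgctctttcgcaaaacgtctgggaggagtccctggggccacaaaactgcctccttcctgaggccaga
XIRP1, chr3:39192596-39192845, minus strand: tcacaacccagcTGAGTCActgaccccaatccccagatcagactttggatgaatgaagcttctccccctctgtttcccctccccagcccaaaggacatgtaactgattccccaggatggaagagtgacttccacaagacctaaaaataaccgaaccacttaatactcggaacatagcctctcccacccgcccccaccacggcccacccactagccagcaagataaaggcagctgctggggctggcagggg

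NF-kappaB subunits, their inhibitors and chemokines were higher with PMA than with hemin almost throughout. Of 23 measured genes, 21 lay 2-fold above both hemin arrays and 0 below (median 4.11), and 16 passed limma. The minimum was passed only through PMA by 8 of them, which had to be higher. CCL5 was at 2.25 in all K562 arrays without PMA and at 10.38 with it. PTGS2, the inducible cyclooxygenase, had 10.82 with PMA, 2.40 and 2.40 with hemin and 3.03 and 2.53 untreated, and BCL2A1, a survival gene of the BCL2 family that NF-kappaB drives, 10.56 against 2.25 in the 4 hemin and untreated arrays. The subunit genes were closer together. NFKB1 measured 10.16 with PMA, 7.73 and 7.94 with hemin and 7.90 and 8.14 untreated, and the inhibitor gene NFKBIA 13.17 with PMA, 8.48 and 8.25 with hemin and 9.42 and 9.46 untreated. For CXCL8, CXCL2 and CXCL3, chemokines that attract neutrophils, 25 µM hemin already lay above untreated cells. CXCL8 had 13.50 with PMA, 10.23 and 8.55 with hemin and 7.73 and 8.30 untreated, so that PMA was 3.27 log2 units above the nearer hemin array.

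Globin genes did not move together. Of 7 measured genes of the globin list, 3 were 2-fold below both hemin arrays and 0 above, against 16.7% and 15.7% of all genes. The median of PMA minus hemin was -1.17, and it was -0.69 against 25 µM and -1.65 against 50 µM hemin alone. The alpha globin chaperone gene AHSP, counted among the 7, lies outside the globin loci. It was under 5 on each PMA, hemin and untreated array and passed the minimum only through the DAC array. HBZ, the embryonic zeta globin, had 10.91 with PMA, 15.77 and 16.19 with hemin and 14.71 and 12.05 untreated, so PMA was 29.1-fold below the nearer hemin array as measured, with hemin near the top of the scale where differences are compressed. The untreated arrays were 2.66 log2 units apart and the limma adjusted p was 0.0517. HBQ1, theta globin, had 5.72 with PMA, 9.34 and 9.01 with hemin and 8.16 and 8.12 untreated (adjusted p = 0.00741), and BGLT3, a noncoding RNA of the beta globin locus, 6.004 with PMA, 8.48 and 9.26 with hemin and 5.33 and 5.15 untreated (adjusted p = 0.0203). The PMA value of BGLT3 was within 1 log2 unit of both untreated arrays, and both hemin arrays lay above them. HBD, delta globin, was in contrast as high with PMA as with hemin, at 13.67 with PMA, 12.22 and 13.38 with hemin and 10.19 and 8.01 untreated. All 3 treated arrays lay above both untreated arrays there. HBE1, epsilon globin, had 14.41 with PMA, 14.55 and 14.83 with hemin and 14.27 and 12.64 untreated, and HBB 9.72 with PMA, 10.41 and 11.36 with hemin and 9.36 and 7.45 untreated, with PMA inside the range of the 4 hemin and untreated arrays in both. The 6 probe sets that HBA1 shares with other genes read 12.31 to 13.31 with PMA, 14.50 to 15.16 and 14.87 to 15.48 with hemin and 14.21 to 14.87 and 12.03 to 13.08 untreated. The 3 shared by the gamma globins read 15.59 to 15.82 with PMA and 15.44 to 15.67 and 15.44 to 15.65 with hemin, also near the top of the scale.

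Heme synthesis was lower with PMA. Of 14 measured genes of heme synthesis and iron uptake, 8 were 2-fold below both hemin arrays and 1 above (median -1.35). Over all genes the shares were 16.7% below and 15.7% above. ALAS2, the erythroid enzyme of the opening step, had 4.21 with PMA, 6.60 and 8.97 with hemin and 6.63 and 5.26 untreated, with 50 µM hemin 2.37 log2 units over 25 µM and an adjusted p of 0.104. FECH, ferrochelatase, which inserts the iron, had 8.20 with PMA, 10.14 and 10.21 with hemin and 9.76 and 9.14 untreated. PPOX, the step before it, had 7.60 with PMA, 9.57 and 9.48 with hemin and 8.81 and 8.48 untreated. Its other probe set was -0.41 from the hemin mean, against -1.92 for this one. ABCB10, a mitochondrial transporter that erythroid cells need for heme, had 8.45 with PMA, 11.36 and 11.51 with hemin and 11.03 and 11.01 untreated, and FLVCR1, a heme exporter, 6.24 with PMA, 8.25 and 9.07 with hemin and 8.19 and 8.67 untreated. In FECH, PPOX and ABCB10 the PMA value was also under both untreated arrays by 0.88 to 2.57 log2 units. UROS, another enzyme of the pathway, went the other way, at 8.75 with PMA, 7.32 and 7.56 with hemin and 7.69 and 7.41 untreated. The transferrin receptor gene TFRC had 12.82 with PMA, 13.74 and 14.33 with hemin and 13.56 and 13.69 untreated, less than 2-fold apart.

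Of 15 red cell membrane genes, 6 were lower, against 16.7% of all genes. The 2 higher were near the share of all genes (15.7%). The list median was -0.55, which was -1.11 against 50 µM hemin and 0 against 25 µM hemin alone. ADD2, beta adducin of the membrane skeleton, had 6.07 with PMA, 10.38 and 10.67 with hemin and 9.66 and 9.14 untreated. Its 4 probe sets ran from -4.93 to -1.72 relative to the hemin mean. The blood group genes ERMAP and ICAM4 were at 4.25 and 6.89 with PMA, at distances of -2.23 (a lower bound in size) and -2.24 from the nearer hemin array. AQP1, the water channel of red cells, was instead at 8.12 with PMA, 2.55 and 3.44 with hemin and 3.001 and 2.25 untreated. The ALAS2 window is shown for its GATA match, in capitals. It also holds an AP-1 match inside an antioxidant response match, neither marked, further toward the start site. GATA matches stood in 4.54% of windows of genes 2-fold lower with PMA and 5.09% of those tested.
ALAS2, chrX:55030978-55031227, minus strand: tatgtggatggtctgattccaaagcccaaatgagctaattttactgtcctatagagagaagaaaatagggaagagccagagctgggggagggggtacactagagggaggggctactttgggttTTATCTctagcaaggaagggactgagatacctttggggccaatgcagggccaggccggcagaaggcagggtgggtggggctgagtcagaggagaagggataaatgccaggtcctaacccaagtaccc

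Of 18 measured transcription factors of either lineage, 7 were 2-fold above hemin, against 15.7% of all genes. The 3 below were near the share of all genes (16.7%), and the list median was 0.81. KLF1, the erythroid activator of beta globin, had 7.001 with PMA, 9.97 and 10.78 with hemin and 10.96 and 9.58 untreated and passed limma (adjusted p = 0.0436). IKZF1 had 7.46 with PMA, 9.89 and 10.07 with hemin and 9.85 and 10.48 untreated, and its 4 probe sets ran from -2.51 to -0.69 relative to the hemin mean. BCL11A, a repressor of gamma globin, had 3.34 with PMA, 6.94 and 6.84 with hemin and 6.84 and 7.52 untreated. Among the genes above hemin, ZFPM1, the GATA1 cofactor, had 9.84 with PMA, 7.72 and 7.52 with hemin and 8.29 and 7.71 untreated, and GFI1B, a repressor needed in both lineages, 11.50 with PMA, 9.44 and 9.64 with hemin and 10.28 and 9.84 untreated. GATA1 had 10.84 with PMA, 9.19 and 9.47 with hemin and 10.42 and 9.72 untreated, with both hemin arrays under both untreated arrays and an adjusted p of 0.0613, and GATA2 10.64 with PMA, 8.87 and 9.38 with hemin and 10.02 and 10.03 untreated. FLI1 and ERG, ETS factors of megakaryocytes, were under the minimum on the K562 arrays. TAL1, LDB1, NFE2, MYB, SOX6, LYL1, SPI1 and CBFA2T3 were less than 2-fold apart.

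The antioxidant genes set hemin apart from both other states. Of 23 measured NRF2 targets and genes of heme breakdown and iron export, 18 were 2-fold lower with PMA and 0 higher (median -1.96), and 15 passed limma. Relative to the untreated mean, the median of the list was 1.24 and 0.86 with hemin and -0.34 with PMA. These values share the untreated arrays. ME1, malic enzyme, which makes NADPH, had 8.07 with PMA, 11.08 and 10.93 with hemin and 8.84 and 8.71 untreated (adjusted p = 0.00772). BLVRB, a biliverdin reductase, had 9.77 with PMA, 12.82 and 13.02 with hemin and 12.55 and 12.001 untreated, and SLC40A1, the iron exporter ferroportin, 9.35 with PMA, 12.54 and 11.84 with hemin and 11.29 and 11.31 untreated. In ME1 both hemin arrays were more than 2 log2 units above untreated cells, whereas in BLVRB hemin lay little above them and PMA more than 2 below. NQO1, a quinone reductase, had 9.45 with PMA, 12.20 and 11.51 with hemin and 9.98 and 9.50 untreated, and OSGIN1, an oxidative stress gene, 3.06 with PMA, 7.84 and 6.80 with hemin and 3.06 and 3.06 untreated. Among these arrays OSGIN1 reached 5 only with hemin. Of the 23 genes, 1 passed the minimum only through hemin and so had to be lower with PMA. FTL, PGD and PIR lay between the hemin arrays.
The ME1 window is shown for its antioxidant response match, in capitals, whose opening letters are also an AP-1 match. Such antioxidant matches stood in 12.4% of windows of genes 2-fold lower with PMA and 12% of those tested.
ME1, chr6:83431052-83431301, minus strand: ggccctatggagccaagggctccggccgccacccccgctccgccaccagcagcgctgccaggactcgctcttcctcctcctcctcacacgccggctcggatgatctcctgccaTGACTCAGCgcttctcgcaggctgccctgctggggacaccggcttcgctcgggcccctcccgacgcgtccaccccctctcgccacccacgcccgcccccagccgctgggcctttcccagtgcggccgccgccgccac

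Heat shock genes were lower with PMA in 6 of 14 and higher in 0, against 16.7% and 15.7% of all genes (median -0.93). HSPE1, a mitochondrial chaperonin, had 11.15 with PMA, 14.32 and 14.74 with hemin and 13.60 and 13.23 untreated. Its partner HSPD1 had 12.86 with PMA, 14.65 and 14.76 with hemin and 14.61 and 14.52 untreated. Both were under untreated cells with PMA. HSPH1, a partner of the inducible heat shock protein, had 9.64 with PMA, 11.34 and 11.98 with hemin and 9.85 and 9.75 untreated, and CHORDC1, a cochaperone, 10.66 with PMA, 12.37 and 12.84 with hemin and 10.91 and 11.23 untreated. In these the PMA value was near untreated cells and both hemin values were above them. The 3 probe sets that HSPA1A shares with other genes gave PMA minus hemin of at least 0.0048 and at most 0.53 against 25 µM. Against 50 µM it was -1.22 to -1.09, so PMA lay between the doses or at the lower dose. The 3 probe sets read 13.15, 12.89 and 9.15 with PMA. Untreated, they read 10.41, 9.87 and 6.60 on 1 array and 11.01, 10.24 and 5.97 on the other, so PMA was above both. CHORDC1 is shown for its 3 heat shock matches, in capitals, and such a match stood in 5.28% of windows of genes 2-fold lower and 4.16% of those tested.
CHORDC1, chr11:90223050-90223299, minus strand: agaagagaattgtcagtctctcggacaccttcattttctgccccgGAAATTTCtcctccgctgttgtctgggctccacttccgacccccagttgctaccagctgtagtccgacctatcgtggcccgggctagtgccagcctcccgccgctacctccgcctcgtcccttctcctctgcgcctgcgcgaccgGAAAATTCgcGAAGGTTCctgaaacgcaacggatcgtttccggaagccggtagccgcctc

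The ATF4 targets, which supply amino acids under stress, depended on the hemin dose. Of 19 measured, 8 were 2-fold below both hemin arrays and 0 above (median -1.94), but 2 passed limma, and 50 µM hemin was itself a median of -2.09 from 25 µM. The median of PMA minus hemin was -2.82 against 25 µM and -0.97 against 50 µM. ASNS, asparagine synthetase, had 8.70 with PMA, 13.85 and 11.29 with hemin and 13.92 and 14.16 untreated (adjusted p = 0.0794). MTHFD2, of mitochondrial folate metabolism, had 10.82 with PMA, 13.64 and 12.42 with hemin and 13.79 and 13.65 untreated, and CBS, of the route from homocysteine to cysteine, 7.29 with PMA, 10.79 and 9.93 with hemin and 11.63 and 11.07 untreated. With values under 5 raised to 5, DDIT4, SESN2, ATF5, STC2, CHAC1 and ALDH1L2 were no lower with PMA than with 50 µM hemin.

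**Figure D4:**
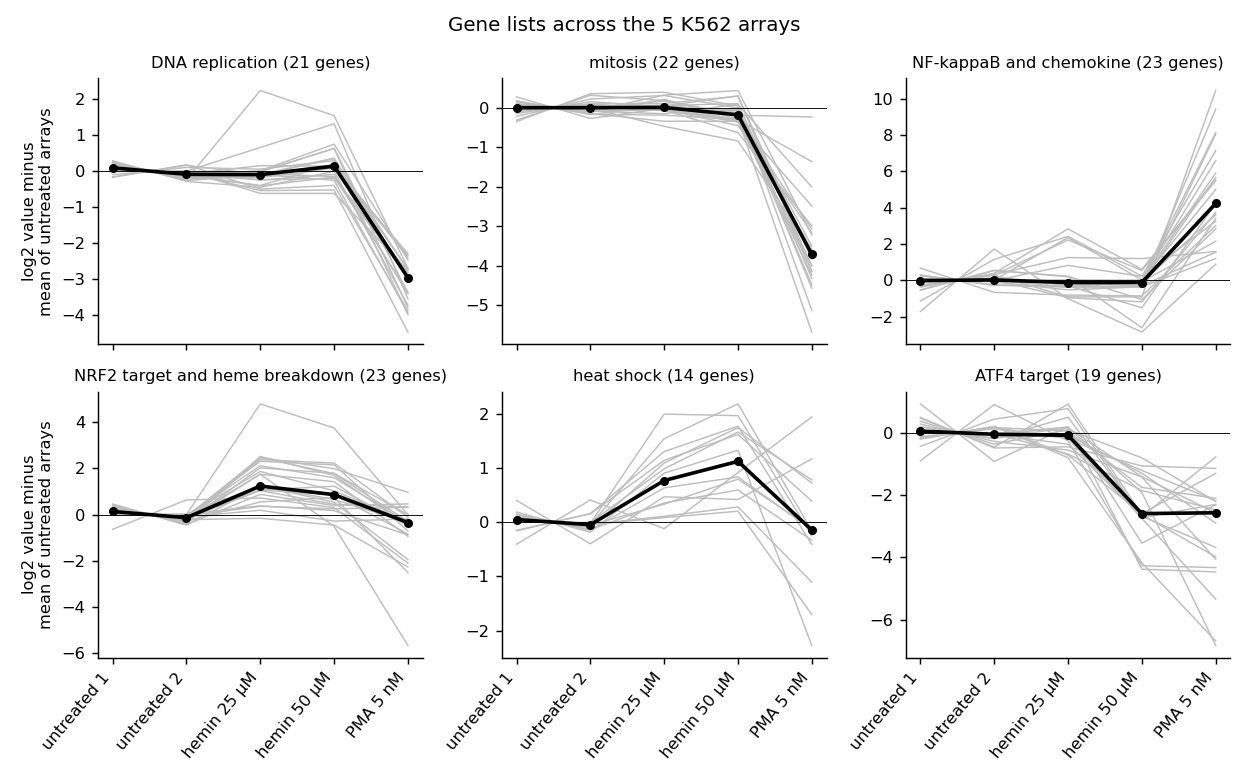
Log2 value minus the mean of the 2 untreated arrays for 6 gene lists, with a grey line for each gene and a black line for the median over 2 untreated, 2 hemin and 1 PMA array; lines join arrays and carry no time. The replication and mitosis medians are -2.97 and -3.71 with PMA and 0.14 and -0.18 with 50 µM hemin, and the ATF4 median is -2.60 with 50 µM hemin and -0.08 with 25 µM.

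Genes of DNA replication and mitosis were lower with PMA almost throughout. All 21 measured replication genes were 2-fold below both hemin arrays and past limma (median -3.25), and 21 of 22 mitosis genes were 2-fold below, 20 of them past limma (median -3.71). The median of hemin minus untreated was -0.052 for replication and -0.039 for mitosis, although single genes differed more, MCM5 by 1.89 and POLE2 by 0.99. MCM5, a subunit of the replicative helicase, had 8.20 with PMA, 13.15 and 12.45 with hemin and 11.15 and 10.67 untreated. POLE2, a polymerase subunit, had 5.14 with PMA, 9.36 and 10.02 with hemin and 8.70 and 8.70 untreated, CDC45 6.59 with PMA, 10.53 and 10.55 with hemin and 11.12 and 11.03 untreated and GINS2 7.25 with PMA, 11.16 and 11.61 with hemin and 11.09 and 11.41 untreated, the last pair being helicase partners. MKI67, the proliferation marker, had 5.60 with PMA, 10.14 and 9.95 with hemin and 10.07 and 10.07 untreated, 20.3-fold under the nearer hemin array (adjusted p = 0.00573). CENPF, of the kinetochore, had 6.81 with PMA, 11.43 and 11.11 with hemin and 10.90 and 11.34 untreated, and the spindle checkpoint kinase gene BUB1B 6.88 with PMA, 11.12 and 11.31 with hemin and 10.92 and 11.11 untreated. The 3 probe sets of CENPF ran from -4.46 to -1.24 relative to the hemin mean. The mitotic kinesin gene KIF11 had 5.29 with PMA, 9.79 and 9.79 with hemin and 9.93 and 9.78 untreated, with the 4 hemin and untreated arrays within 0.15 log2 units. The weakest were RRM1 among replication genes, -2.11 from hemin, and AURKA among mitosis genes, -1.06. UBE2C was under 5 on the PMA and hemin arrays.

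Regulators of the G1 phase went both ways, with 5 of 14 above and 5 below, against 15.7% and 16.7% of all genes (median 0.46). CDKN1A, a CDK inhibitor that stops the cycle, had 11.87 with PMA, 6.87 and 6.62 with hemin and 7.16 and 7.55 untreated (adjusted p = 0.00595). CDKN1C, of the same family, had 12.61 with PMA, 8.88 and 8.52 with hemin and 8.26 and 10.38 untreated with an adjusted p of 0.0561. CCND1, cyclin D1, had 11.52 with PMA, 7.22 and 7.33 with hemin and 8.78 and 8.14 untreated, whereas the growth regulator MYC had 11.05 with PMA, 13.24 and 13.38 with hemin and 13.63 and 13.33 untreated. PMA thus stood above untreated cells in CDKN1A, CDKN1C and CCND1 and below them in MYC. CDK4, CCNE1, CCNE2 and the inhibitor gene CDKN1B were the other genes 2-fold lower.

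In the BCL2 family, 5 of 11 genes were higher and 0 lower, against 15.7% and 16.7% of all genes (median 1.27). BMF was 1 of 2 among the 11 that were kept only through PMA and so had to be higher. BCL2L1, which protects late erythroid and megakaryocytic cells, had 10.90 with PMA, 9.04 and 8.13 with hemin and 10.15 and 9.47 untreated (adjusted p = 0.0507). The death genes BMF and BAK1 had 6.85 with PMA, 3.37 and 3.37 with hemin and 3.37 and 3.37 untreated and 7.79 with PMA, 5.86 and 5.97 with hemin and 6.88 and 5.97 untreated. Cholesterol synthesis was little apart, with 1 of 12 genes higher and 0 lower (median -0.13, from -0.20 to -0.07 against each hemin dose). That gene was SQLE, squalene epoxidase, at 14.96 with PMA, 12.79 and 12.86 with hemin and 13.47 and 13.23 untreated. For IDI1, of the same list, the brightest probe set was -0.81 from the hemin mean and the lowest -2.76. The paper selected 6 genes related to erythrocyte differentiation from its NSD2 knockdown targets. Of these, 5 were measured, and FOS alone was 2-fold above both hemin arrays with PMA. VEGFA, DNASE2 and BCL6 lay between the hemin arrays, and PIM1 had 10.06 with PMA, 11.67 and 10.74 with hemin and 11.95 and 11.71 untreated.

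Markers of other blood cells were checked beside these results. Of 8 lymphocyte markers, 4 had a named probe set, and CD3D was the only marker of these at or above 5 in any K562 array. CD3D, a chain of the T cell receptor complex, had 12.51 with PMA, 9.78 and 8.71 with hemin and 10.42 and 11.01 untreated, and CD3G, another chain that is not among the 8 markers, 5.65 with PMA, 2.32 and 2.32 with hemin and 3.03 and 3.67 untreated. Both were highest with PMA, but CD3G passed the minimum only through PMA, by 0.65, and so had to be highest there. CD2, CD79A and CD79B stayed under the minimum. The summed level of these lymphocyte markers, nearly all of it CD3D, was 12.52 on the log2 scale with PMA, 9.85 and 8.80 with hemin and 10.45 and 11.03 untreated. Of 13 monocyte and granulocyte markers, 3 had a named probe set, and their summed level was 8.05 with PMA, between 6.96 and 8.57 with hemin. CTSG, of granulocyte granules, was under the minimum. LYZ, lysozyme, had 7.39 with PMA, 8.19 and 6.62 with hemin and 7.19 and 8.64 untreated, ITGAM 6.44 with PMA, 6.24 and 3.73 with hemin and 3.36 and 7.27 untreated, and CST3, which is widely expressed, 11.21 with PMA, 10.10 and 9.70 with hemin and 10.88 and 10.16 untreated. Their part in the results was not tested.

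HEL cells given the same PMA dose offered arrays that the K562 comparison did not use, 1 treated against 1 untreated and so with no test. Over the 9890 genes, 521 (5.27%) were 2-fold higher with PMA in HEL and 384 (3.88%) 2-fold lower. Among the 1548 genes higher with PMA than with hemin in K562, 310 (20%) were 2-fold higher in HEL and 20 (1.29%) lower. Among the 1647 lower genes, 13 were higher and 175 (10.6%) lower. PPBP went from 3.57 to 8.12 in HEL, MMP9 from 3.77 to 8.45, CD44 from 8.54 to 13.35, CDKN1A from 3.92 to 10.10 and HBZ from 9.96 to 4.38. PF4, at the lowest value in K562, went from 6.50 to 13.34. The proliferation genes did not follow, with a median HEL difference of -0.50 for replication and -0.25 for mitosis, 2 of 21 and 0 of 22 of them 2-fold lower. MKI67 was 10.07 untreated and 10.18 with PMA in HEL. CCL4 and CCL5, far above hemin in K562, stayed at the lowest values in HEL (2.25 and 2.29 with PMA). Whether the cell lines differ was not tested.

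**Figure D5:**
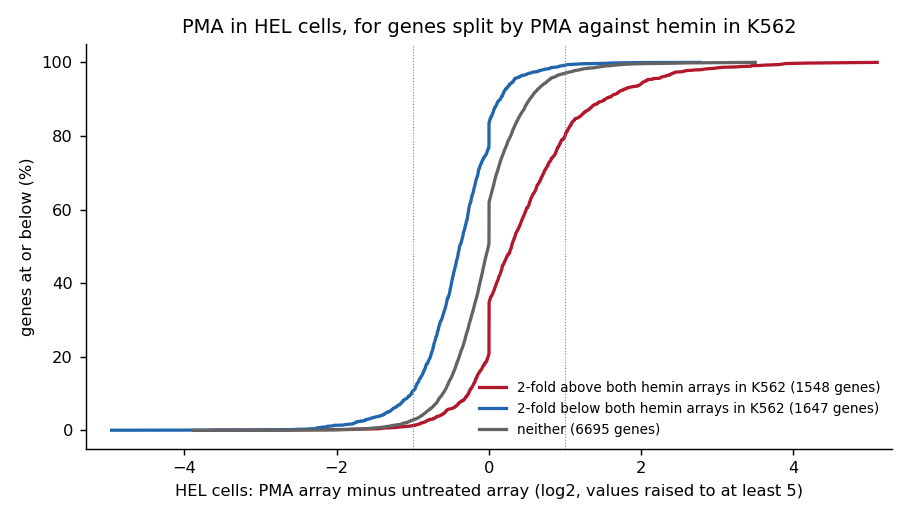
Cumulative share of genes (vertical axis, %) by the difference between the PMA and untreated arrays of HEL cells (log2, horizontal axis), for genes 2-fold above (red) or below (blue) both hemin arrays in K562 and for the others (grey); dotted lines mark 2-fold. The red curve lies to the right and the blue curve to the left of the grey one, with medians of 0.30, -0.38 and -0.0091.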

How the data were processed

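Expression was measured on 9 Affymetrix arrays of a published study of hemin treatment, 6 of K562 and 3 of HEL cells. The deposited values are log2 expression values per probe set, which the authors of that study made with GCRMA (no version named in their processing notes). GCRMA takes off background by probe sequence, puts all arrays on the same quantiles and joins probes into probe sets, so a shift common to most genes would be lost, and values near the lowest level carry no order. The number of arrays limits the precision.

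By the platform annotation, 22858 probe sets named 1 gene, 1164 named several and 3284 were not listed. Of those naming 1 gene, 17615 reached a log2 value of 5 in any K562 array, and the brightest by mean over the 6 K562 arrays stood for each of 9890 genes. In 12 of 4695 genes with several such probe sets, these lay 2-fold beyond hemin in opposite directions. limma 3.58.1 in R 4.3.3 (lmFit, eBayes, Benjamini-Hochberg, threshold 0.05) was fitted on 4 groups, untreated, hemin with both doses, PMA and DAC, and was tested on simulated data. The 2-fold distance was counted after raising values to at least 5.

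The comparison, the 23 gene lists (413 genes, 308 of them measured) and the rule for named genes were chosen with earlier results of these data known. The rule names the 15 genes furthest beyond hemin on each side, the 10 smallest p, up to 4 members a list furthest from hemin, defining lineage genes and the 6 genes of the paper. Other genes were named after their values were seen. HMOX1 had no named probe set. Alternatives were other normalization, filters, probe set rules, floors, folds, models, the methods' t-test and leaving out each untreated or hemin array.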

Additional observations from a re-analysis of the deposited data

How the results depend on the processing

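The count of genes past limma, 2513, ran from 2013 to 2896 under quantile normalization, median centring, other minimum values, no filter, the mean of probe sets, the exchanged floor and an intensity trend, and 1648 to 2489 of those calls were shared. The main limit is the number of arrays. Without any 1 of the 4 hemin and untreated arrays, with the PMA and hemin arrays only, and with each dose as its own group, 0 genes passed in either direction, and the smallest adjusted p was 0.0625 to 0.0907. The methods' t-test, which the paper names for its other data and which here sets 1 PMA array against 2 hemin arrays, called 1576 genes at its unadjusted threshold, of which 8 passed Benjamini-Hochberg. The 2-fold counts, 1548 higher and 1647 lower, were 1545 to 1685 and 1592 to 1788 under the other normalizations, filters and floors, 1724 and 2003 higher and 2024 and 2187 lower without 1 hemin array, 590 and 505 at 4-fold, 3910 and 4485 at any distance, and 2625 lower at 1.5-fold. No paired analysis was possible because PMA has 1 array and nothing pairs it with a hemin array.

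No list median changed sign, except that of the genes of the paper without 50 µM hemin, where the red cell membrane median was 0. Under a minimum of 6 the platelet median was 5.43 in place of 4.77, that of transcription factors 0.66 and that of plasminogen and matrix proteases 4.38, and under a minimum of 4 the transcription factors were at 0.96, integrins 2.83, plasminogen and matrix proteases 3.42 and G1 genes 0.58. With no filter, medians were 1.96 for platelet, 2.73 for MAP kinase feedback, 1.46 for integrin, 2.11 for actin, 3.18 for plasminogen and matrix protease, 0.58 for G1 and 0.077 for lymphocyte genes. With values raised to 5, MAP kinase feedback was at 2.26, plasminogen and matrix protease at 3.18 and lymphocyte markers at 1.96. The G1 median was 0.48 after quantile normalization and 0.44 after centring. With the mean of probe sets, medians were 3.10 for AP-1, 0.69 for G1, -3.31 for replication, -3.23 for mitosis and 0.62 for BCL2 genes. Without 25 µM and 50 µM hemin in turn, medians were 2.89 and 2.72 for AP-1, -3.26 and -3.17 for replication, -3.66 and -3.71 for mitosis, 1.51 and 0.21 for monocyte markers and 0.81 and -0.17 for the genes of the paper.

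Of the genes named, VEGFA (-0.17), DNASE2 (-0.62) and BCL6 (-0.11) were lower with PMA without 50 µM hemin, against 2.43, 0.81 and 0.325 higher without 25 µM hemin, and BCL6 was also lower with the mean of probe sets (-0.13). The causes were not tested.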
